A study of Mus musculus with 4 samples.

Results

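The suppressor of cytokine signalling (SOCS) family and a small group of genes around the transcription factor Stat3 were followed in mouse macrophages with and without a Cre driver that deletes Mettl3. Of 55401 genes in the deposited table, 10 were taken by name: Socs1, Socs2, Socs3, Socs4, Socs5, Socs6 and Cish of the SOCS family, with Stat3, Pim1 and Bcl3. All 10 had enough counts to be tested. The seventh numbered SOCS gene, Socs7, was counted among the other inhibitors of the pathway.

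Bone marrow-derived macrophages of C57BL/6 mice aged 8 weeks had been grown with M-CSF and then kept for 24 h together with cells of MC38, a colon carcinoma line from mouse. The 2 control libraries came from Mettl3fl/fl mice and the 2 knockout libraries from LysM-cre, Mettl3fl/fl mice, so both groups carried the floxed allele and neither included cells kept away from the tumour line. LysM-cre is active in myeloid cells, deletion need not be complete, and the controls carried no Cre. In each group the libraries bore the numbers 1 and 3, and they are called control 1, control 3, knockout 1 and knockout 3 here.

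Total counts ran from 55100415 to 79209870 per library, and 20650 to 20986 genes had a count. Levels are given as CPM, counts scaled to the size of the library, for 1 gene across libraries, and as the deposited FPKM, which is also scaled by length, between genes. Mettl3 itself gave 18.3 and 23.2 CPM in the control libraries 1 and 3, against 13.9 and 19.6 CPM in the knockout ones, and knockout 3 exceeded control 1. In each pair of one number the knockout was the lower library, with log2 differences of -0.40 and -0.25. The count is over the whole gene, so it does not show whether the floxed exons were lost. All 12 macrophage markers were tested, and their summed level lay between 41129 and 56515 CPM. Lyz2 alone gave 22069 to 40813 CPM of these sums. Of 12 epithelial markers for the carcinoma line, 7, Epcam and Krt8 among them, had no count in any library, and the 12 together reached 0.460 to 1.82 CPM. The Y-linked gene Ddx3y stood at 72.1 and 89.1 CPM in the libraries numbered 1 and at 0.307 and 0.139 CPM in those numbered 3. Xist, from the X chromosome, showed the reverse, at 0.589 and 0.624 CPM against 1351 and 1162 CPM, so library number and the sex pattern of these genes coincided. Over the 17260 tested genes, log2 CPM correlated at 0.967 and 0.963 between libraries of the same number and at 0.944 and 0.943 between libraries of the same genotype.

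SOCS proteins are feedback inhibitors of cytokine receptors. A cytokine activates JAK kinases on its receptor, the kinases phosphorylate STAT factors, and the STATs switch on SOCS genes, whose products block the receptor or the kinase and hand them to a ubiquitin ligase through a C-terminal SOCS box. In macrophages Socs3 restrains signals of the IL-6 type and Socs1 those of interferons, while Pim1 and Bcl3 are genes that STAT3 can induce. The mark m6A, which the Mettl3 complex writes on mRNA, often shortens the life of a transcript, and SOCS mRNAs have been described as m6A targets in immune cells.

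The sequence GGACT, the most common form of the m6A consensus, was sought on the sense strand of the longest coding transcript of each gene in GENCODE M21 (GRCm38). It is shown for the SOCS genes in which a copy lies at the end of the coding region, and for Bcl3, where it follows the stop codon, with the motif in capitals in a window of 25 bases.
Socs2, chr10:95412698-95412722, minus strand: tacgatctggGGACTgcctttacca
Socs3, chr11:117967614-117967638, minus strand: acggccacctGGACTcctatgagaa
Cish, chr9:107300827-107300851, plus strand: tggccgacgtGGACTgcctacccct
Bcl3, chr7:19808836-19808860, minus strand: gggcagacccGGACTcatgaggagg
In Socs2, Socs3 and Cish the A of the motif lay 57, 73 and 61 bases before the last base of the stop codon, in the part that encodes the SOCS box. In Bcl3 it lay 24 bases after the stop codon, in the 3′ UTR. Socs1 had 1 GGACT in its whole transcript, 753 bases after the stop codon.

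A copy of GGACT lay within 200 bases of the stop codon in 4 of the 10 genes (40.0%), against 36.7% of 21677 coding genes. The median density was 0.971 per kilobase in the 10 genes and 1.01 in all coding genes. Pim1 had the highest density of the group, at 1.85 per kilobase, and Socs4 the lowest, at 0.291. The motif was thus about as frequent in these transcripts as in others, and a match says nothing of whether the site was methylated.

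The promoter windows in the RefSeq table (GRCm38.p6, from 250 bases before to 50 bases after the annotated start) were searched for TTCNNNGAA, the palindrome that STAT factors bind and that reads the same on both strands. Windows were found for 7 of the genes, 8 windows in all, and 2 genes held the motif, Cish and Socs3. Among all 32851 promoter windows 8.30% held it. Both windows that held the motif are shown, with the motif in capitals. Socs2, Socs5 and Socs6 had no window, and a link between the motif and the levels was not tested.
Cish, chr9:107296409-107296708, plus strand: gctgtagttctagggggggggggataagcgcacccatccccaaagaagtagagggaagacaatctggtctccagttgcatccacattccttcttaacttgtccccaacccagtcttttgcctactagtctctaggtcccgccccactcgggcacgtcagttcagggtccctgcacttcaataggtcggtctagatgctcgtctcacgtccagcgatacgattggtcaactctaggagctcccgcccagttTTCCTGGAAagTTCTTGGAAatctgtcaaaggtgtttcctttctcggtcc
Socs3, chr11:117969317-117969616, minus strand: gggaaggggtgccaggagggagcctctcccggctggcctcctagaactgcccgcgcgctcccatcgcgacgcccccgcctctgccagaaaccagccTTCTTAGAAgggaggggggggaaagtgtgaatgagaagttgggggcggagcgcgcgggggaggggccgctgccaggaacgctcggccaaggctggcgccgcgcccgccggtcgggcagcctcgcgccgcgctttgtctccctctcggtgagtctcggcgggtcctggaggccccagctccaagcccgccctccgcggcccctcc
The Cish window held 2 copies, at the RefSeq start and 11 bases after it. The Socs3 window held 1 copy, 154 bases before the RefSeq start. The deposited coordinates use other starts for these genes, 107296026 for Cish and 117970047 for Socs3, which is on the minus strand. By those coordinates both windows, with their motifs, lay inside the gene rather than before it. The windows of Socs1, Socs4, Stat3, Pim1 and Bcl3 held none, which says only that these letters were not in those 300 bases.

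Socs3 was the most abundant of the 10 transcripts per length, and Socs2 the least. The mean FPKM over the 4 libraries was 67.4 for Socs3, 22.8 for Stat3, 19.95 for Bcl3, 13.4 for Pim1, 7.98 for Socs4, 4.97 for Socs5, 3.41 for Socs6, 1.15 for Cish, 0.691 for Socs1 and 0.236 for Socs2. The first 7 held the same order in each of the 4 libraries. The neighbours Stat3 and Bcl3 were not separated by their spread, at 16.9 to 26.2 and 16.8 to 21.6 FPKM, nor were Cish and Socs1, at 0.245 to 2.15 and 0.0601 to 1.92 FPKM. Socs3 stood 2.95-fold above Stat3 and 13.6-fold above Socs5 in mean FPKM.

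**Figure D1:**
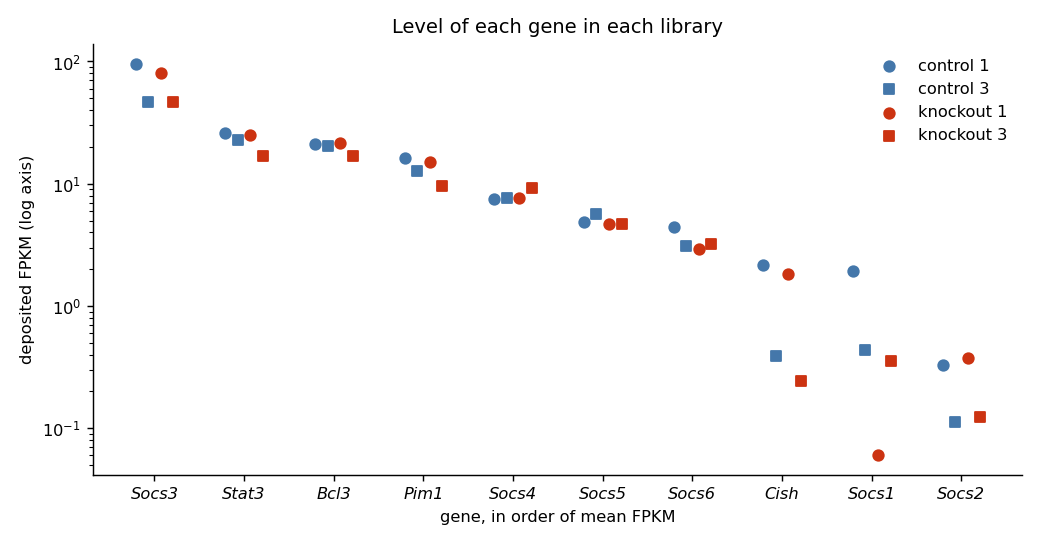
Deposited FPKM (log axis) of each of the 10 genes in each library, with blue for controls, red for knockouts, circles for libraries numbered 1 and squares for those numbered 3. Socs3 is highest in every library, Cish, Socs3 and Socs2 separate by number rather than by colour, and Socs1 in knockout 1 is the lowest point, at 0.0601 FPKM.

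None of the 10 genes passed the test between genotypes. Socs1 had the largest point estimate, and Socs6 and Cish each had 1 pair of libraries that differed 1.53-fold. By edgeR's quasi-likelihood test over all genes, 0 of the 10 had an adjusted p under 0.05, where the call rate over the 17260 tested genes was 0%. At an unadjusted p under 0.05 there were again 0 of the 10, against 2.27% of all genes. DESeq2 called 0 of the 10 as well, against 0.291% of 25066 genes, and with the library number in its fit 0 of the 10, against 0.682%. Point estimates lay below 0 for 8 of the 10 (median log2 fold change -0.19, against -0.00 for all tested genes), and 2 of the 10 (Socs1 and Socs5) had both knockouts below both controls, against 13.4% of all genes. The reverse order held for 0 of the 10, against 13.1%. Within both library numbers the knockout was lower for 5 of the 10 genes, against 27.2% of all genes, and higher for 1, against 25.8%. The intervals below are wide, since there were 2 libraries a group and the fit leaves the difference between library numbers in the spread. A missed threshold does not show that the groups were alike. With number in the edgeR fit, 0 of the 10 were called, against 0% of all genes. The smallest unadjusted p of the 10 was then 0.126, for Cish.

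Socs1, which encodes an inhibitor that binds and blocks JAK kinases (chromosome 16, 10782240 to 10785536, minus strand), was low in all libraries and nearly at the detection floor in 1 of them. It stood at 6.26 CPM in control 1, 1.39 CPM in control 3, 0.208 CPM in knockout 1 and 1.17 CPM in knockout 3. Control 1 was the high library and knockout 1 the low one, while the libraries numbered 3 were close together. The counts behind these levels were 340, 86, 13 and 93 in the same order. Many low counts in the table were multiples of 4, and if a read pair gave 4 counts, knockout 1 held about 3 read pairs and control 1 about 85. The level that 12 counts give in knockout 1 is 0.192 CPM, so its Socs1 value lay just above that floor.

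The pooled log2 fold change of Socs1 was -2.46 ± 1.14 (SE, n = 2 a group), with a 95% interval from -5.48 to 0.56 (edgeR unadjusted p = 0.0893, adjusted p = 1.00). DESeq2 gave an unadjusted p of 0.0164, and an adjusted p of 1.00. In the libraries numbered 1 the difference was -4.72 in log2 CPM with the prior count, and the ratio of control to knockout was 30.1 in CPM. Counted in read pairs, that ratio was 32.6 with a counting interval of 10.8 to 161.3. In those numbered 3 the log2 difference was -0.24 and the CPM ratio 1.18. In read pairs the ratio was 1.22 with an interval of 0.650 to 2.29. Both intervals assume 4 counts per read pair, which not all of the Socs1 counts meet, and cover counting error only. The direction was the same in both numbers, and most of the size came from 1 pair of libraries: without control 1 the fold change was -0.99, and without knockout 1 it was -1.68.

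Socs3, whose product docks on receptors such as the IL-6 signal transducer (chromosome 11, 117966079 to 117970047, minus strand), was close between the genotypes, 1.22-fold higher in control 1 than in knockout 1 and 1.03-fold higher in knockout 3 than in control 3. It stood at 311.8 CPM in control 1, 147.97 CPM in control 3, 256.2 CPM in knockout 1 and 152.2 CPM in knockout 3. Both libraries numbered 1 lay above both numbered 3, and the genotypes overlapped. The pooled log2 fold change was -0.17 ± 0.45 (SE, n = 2 a group; 95% interval -1.37 to 1.03; edgeR unadjusted p = 0.723, adjusted p = 1.00). The differences within numbers were -0.28 and 0.04. With number in the fit the log2 fold change was -0.12 (edgeR unadjusted p = 0.433, adjusted p = 0.960).

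Cish encodes CIS, an inhibitor that binds the receptor sites STAT5 uses (chromosome 9, 107296026 to 107302784, plus strand). It stood at 15.5 CPM in control 1, 2.73 CPM in control 3, 13.0 CPM in knockout 1 and 1.78 CPM in knockout 3. The knockout was the lower library of each pair, but the step between the numbers was several times larger than the step between the genotypes. The log2 difference between genotypes was -0.25 in number 1 and -0.61 in number 3, and the pooled fold change was -0.30 ± 1.21 (SE, n = 2 a group; edgeR unadjusted p = 0.812, adjusted p = 1.00). Its 95% interval ran from -3.49 to 2.89, a width that also holds the step between the numbers. With number in the fit the log2 fold change between genotypes was -0.43 (edgeR unadjusted p = 0.126, adjusted p = 0.951).

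Socs2, an inhibitor of growth hormone receptor signalling (chromosome 10, 95385362 to 95417180, minus strand), was the only one of the 10 that was higher in the knockout of both pairs. Its levels were 3.55 CPM in control 1, 1.19 CPM in control 3, 4.05 CPM in knockout 1 and 1.34 CPM in knockout 3. The log2 differences were 0.19 in number 1 and 0.16 in number 3, on counts of 74 to 253. The pooled fold change was 0.18 ± 0.80 (SE, n = 2 a group; edgeR unadjusted p = 0.830, adjusted p = 1.00).

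Socs4, Socs5 and Socs6 are members with long N-terminal regions, known mostly as regulators of receptor tyrosine kinases. The highest library exceeded the lowest 1.21-fold for Socs5, 1.24-fold for Socs4 and 1.53-fold for Socs6 in CPM. Socs4 (chromosome 14, 47276931 to 47296102, plus strand) stood at 58.2, 57.2, 58.0 and 70.98 CPM in control 1, control 3, knockout 1 and knockout 3, with knockout 3 the one library apart. Its log2 fold change was 0.16 ± 0.17 (SE, n = 2 a group; 95% interval -0.29 to 0.61; edgeR unadjusted p = 0.392). Socs5 (chromosome 17, 87107679 to 87137839, plus strand) gave 34.8 and 40.1 CPM in the control libraries 1 and 3, against 33.1 and 33.7 CPM in the knockout ones. The groups of Socs5 did not overlap, but the gap between control 1 and knockout 3 was small, and the log2 fold change was -0.16 ± 0.17 (SE, n = 2 a group; 95% interval -0.62 to 0.29; edgeR unadjusted p = 0.386). Socs6 (chromosome 18, 88665224 to 88894352, minus strand) stood at 56.3 CPM in control 1 and at 38.8, 36.8 and 40.9 CPM in control 3, knockout 1 and knockout 3. Only control 1 was high, and the within-number differences of -0.61 and 0.08 had opposite signs. The pooled value of Socs6 was -0.29 ± 0.24 (SE, n = 2 a group; 95% interval -0.92 to 0.34; edgeR unadjusted p = 0.282).

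Stat3, the transcription factor of IL-6 and IL-10 signalling (chromosome 11, 100885098 to 100939540, minus strand), was lowest in knockout 3. It stood at 280.2 CPM in control 1, 239.9 CPM in control 3, 267.4 CPM in knockout 1 and 180.3 CPM in knockout 3. The genotypes overlapped because knockout 1 exceeded control 3. The log2 fold change was -0.22 ± 0.25 (SE, n = 2 a group; 95% interval -0.87 to 0.44; edgeR unadjusted p = 0.426, adjusted p = 1.00), with -0.07 in number 1 and -0.41 in number 3. Stat3 overlaps the gene Stat5a on the opposite strand, and no label or header says whether the authors' counting used the strand. Stat5a had a mean of 2.50 FPKM.

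Pim1, a serine/threonine kinase that promotes survival (chromosome 17, 29490753 to 29496112, plus strand), followed the same order of libraries as Stat3. Its levels were 61.6 CPM in control 1, 46.5 CPM in control 3, 56.1 CPM in knockout 1 and 36.2 CPM in knockout 3. The log2 fold change was -0.23 ± 0.29 (SE, n = 2 a group; 95% interval -0.99 to 0.53; edgeR unadjusted p = 0.466), with -0.14 and -0.36 within the numbers. Bcl3, an IkB-like protein that works in the nucleus with NF-kB subunits (chromosome 7, 19808462 to 19822770, minus strand), gave 58.3 and 55.3 CPM in the control libraries 1 and 3, against 59.6 and 46.7 CPM in the knockout ones. Knockout 3 was again the low library, with log2 differences of 0.03 in number 1 and -0.24 in number 3. The log2 fold change of Bcl3 was -0.10 ± 0.19 (SE, n = 2 a group; 95% interval -0.59 to 0.39; edgeR unadjusted p = 0.625).

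**Figure D2:**
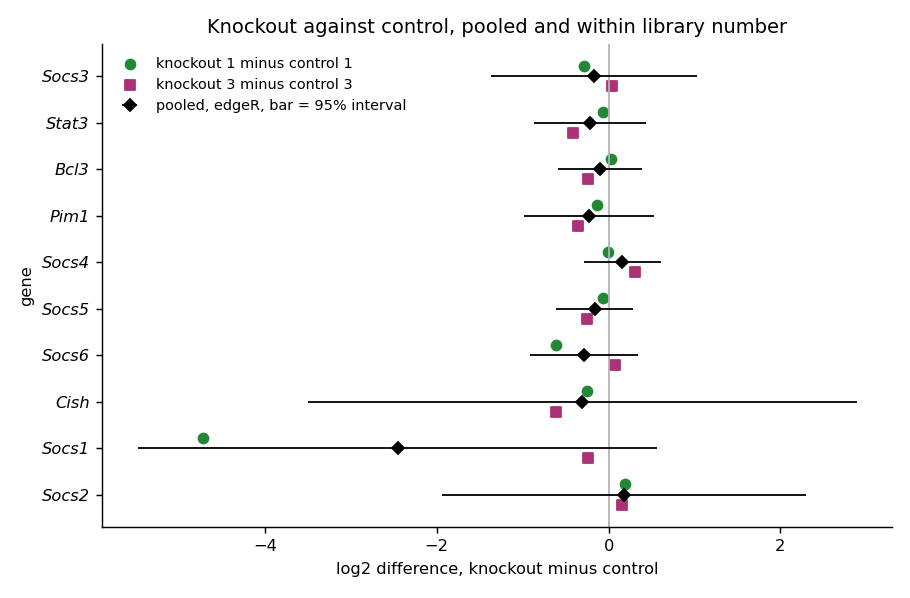
Log2 difference between knockout and control for each gene: the black diamond and bar are the pooled edgeR estimate and its 95% interval (2 libraries a group), the green circle the pair numbered 1 and the purple square the pair numbered 3. Every interval includes 0, and only the pair numbered 1 of Socs1, at -4.72, lies far from the rest.

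Leaving out 1 library mixes number with genotype, and the sign of the pooled value then turned for 7 of the 10 genes (Socs2, Socs3, Socs6, Cish, Stat3, Pim1 and Bcl3). It held for Socs1, Socs4 and Socs5 with any 1 library left out. For Socs4 the value was about 0 without knockout 3, at 0.008, and for Socs5 it was -0.053 without control 3.

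The libraries numbered 3 were compared with those numbered 1 because an earlier analysis of these data had found libraries alike by number. The choice of this comparison was thus not independent of the data. The library number stands for no factor named in the labels, and it coincides with the sex pattern above, so the sources of this difference cannot be told apart. Both libraries numbered 3 lay below both numbered 1 for 6 of the 10 genes (Socs3, Stat3, Bcl3, Pim1, Cish and Socs2), against 25.2% of all tested genes. They lay above for 0 of the 10, against 26.2%. In a fit with genotype and number, edgeR called 1 of the 10, Cish, where it called 0.707% of all genes and 0.301% in that direction. It called 0 of the 10 as higher in number 3, against 0.406% of all genes.

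Cish was 5.69-fold higher in control 1 than in control 3 and 7.30-fold higher in knockout 1 than in knockout 3. Its log2 difference, number 3 minus number 1, was -2.69 ± 0.24 (SE, n = 2 per number; 95% interval -3.33 to -2.04; edgeR unadjusted p = 2.52e-04, adjusted p = 0.0438). DESeq2 also called it, with a log2 difference of -2.68 (adjusted p = 6.24e-11). The direction held under every alternative run, but the call did not hold under all of them. It was lost without the filter on low counts (log2 difference -2.67, edgeR adjusted p = 0.125) and by limma on log2(FPKM + 1) (adjusted p = 0.0781). With number as the only term (edgeR adjusted p = 0.0417) it was also lost on leaving out any 1 of the 4 libraries, at adjusted p-values of 0.0550 to 0.158 and log2 differences of -2.99 to -2.38.

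Socs3 differed in the same direction, 2.11-fold between the controls and 1.68-fold between the knockouts. Its log2 difference was -0.91 ± 0.14 (SE, n = 2 per number; 95% interval -1.30 to -0.53; edgeR unadjusted p = 0.00240, adjusted p = 0.0882), and DESeq2 called it (adjusted p = 2.03e-04). Socs2 was 2.97-fold and 3.02-fold higher in number 1, a log2 difference of -1.58 ± 0.31 (edgeR unadjusted p = 0.00610, adjusted p = 0.131). Pim1 had -0.52 ± 0.13 (edgeR adjusted p = 0.186), Stat3 -0.40 ± 0.14 (edgeR adjusted p = 0.278) and Bcl3 -0.21 ± 0.14 (edgeR adjusted p = 0.498). The estimates of Socs4, Socs5 and Socs6 were 0.13, 0.12 and -0.19. Socs1 moved in opposite directions in the 2 genotypes, with -2.15 between the controls and 2.34 between the knockouts, as control 1 was the high library and knockout 1 the low one.

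**Figure D3:**
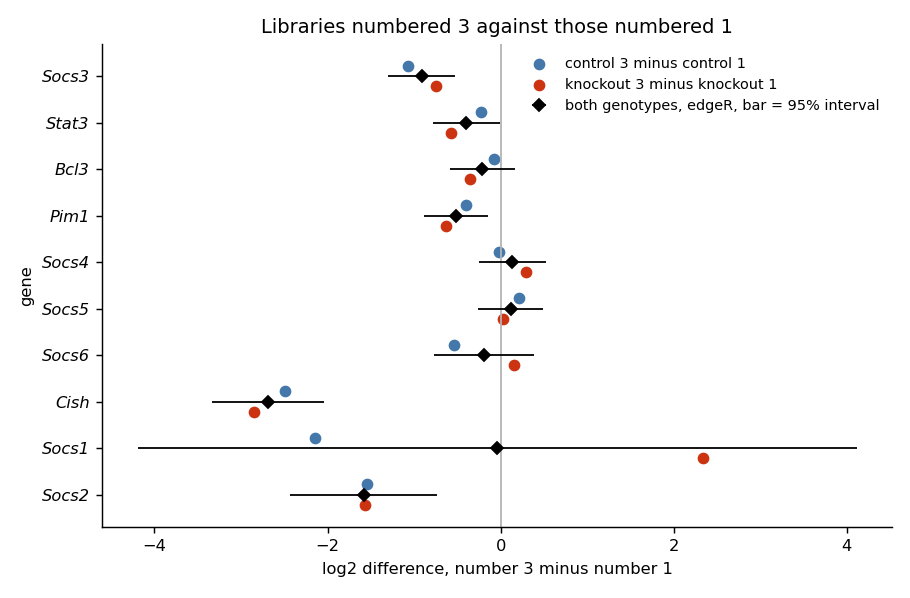
Log2 difference between libraries numbered 3 and 1 for each gene: blue for the controls, red for the knockouts, and in black the edgeR estimate with genotype in the fit and its 95% interval (2 libraries a number). Cish, Socs2 and Socs3 lie left of 0 in both genotypes, and the 2 points of Socs1 lie on opposite sides.

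Markers of some other cells also differed by number. The summed level of 6 B cell markers was 40.7 and 54.5 CPM in the libraries numbered 1 and 7.48 and 4.98 CPM in those numbered 3, the same direction as Cish. Ighm gave 35.2 and 44.3 CPM of the sums in number 1 and 4.41 and 2.32 CPM of those in number 3. Pax5 had 4 counts, all in knockout 1. The 11 T and NK cell markers summed to 65.0 and 44.6 CPM in number 1 and to 209.2 and 192.7 CPM in number 3. Most of these sums was Il7r and Cd4, with no count of Cd3e, Cd8a or Cd8b1. Il7r gave 47.2 and 19.99 CPM in number 1 and 184.4 and 168.5 CPM in number 3. Cd4 was close between the numbers, at 17.1 and 24.5 CPM against 23.8 and 23.1 CPM. Fibroblast and stromal markers (11 genes) summed to 468.0 and 374.5 CPM in number 1 and to 963.1 and 618.5 CPM in number 3. Both libraries numbered 3 lay above both numbered 1 for 8 of the 11, against 26.2% of all tested genes. They lay below for the other 3, Col3a1, Lum and Fap, against 25.2%. Neutrophil markers summed to 14.8 and 19.6 CPM in number 1 and to 18.7 and 26.5 CPM in number 3, so the numbers overlapped. Dendritic cell markers summed to 5.27 and 5.68 CPM in number 1 and to 4.55 and 4.13 CPM in number 3. The part of these in the Cish, Socs2 and Socs3 values was not tested. In bulk RNA, fewer cells of a type and less RNA per cell cannot be told apart.

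Across the 4 libraries the closest patterns to each of 4 genes were sought among 125 others, the tested genes of the pathway lists and the rest of the 10, as Pearson's r of log2 CPM. For Cish they were Il4 (r = 0.996) and Il4ra (r = 0.992), for Socs3 Lepr (r = 0.992) and Nfil3 (r = 0.989), for Socs1 Il6 (r = 0.983) and Nfkbie (r = 0.955), and for Stat3 Stat4 (r = 0.998) and Bcl3 (r = 0.984). With 4 points and this many genes, values near 1 are easily reached, and the points share the difference between library numbers. Il4ra, a chain of the IL-4 receptor, stood at 907.4 and 917.6 CPM in number 1 and at 459.9 and 434.7 CPM in number 3. Il4 was near the floor, at 0.417 to 0.928 CPM. Lepr, the leptin receptor, which Socs3 is known to inhibit, stood at 8.58 and 5.52 CPM in number 1 and at 0.355 and 0.316 CPM in number 3 (log2 difference, number 3 minus number 1, -4.35; edgeR adjusted p = 0.0374).

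The rest of the pathway was read in the same comparison of knockout with control. In none of the 8 lists did edgeR or DESeq2 call a gene at an adjusted p under 0.05, and the list medians lay between -0.17 and 0.10.

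Upstream of the SOCS genes, 14 of 18 cytokines were tested, with 5 above 0, 9 below and a median of -0.17. Il10, an anti-inflammatory cytokine that signals through Stat3, gave 3.15 and 3.46 CPM in the control libraries 1 and 3, against 8.81 and 4.75 CPM in the knockout ones, higher in both pairs (log2 fold change 1.04 ± 0.42; SE, n = 2 a group; edgeR unadjusted p = 0.0591). Csf3, the growth factor of granulocytes, stood at 7.46 and 2.36 CPM against 2.85 and 1.10 CPM, lower in both pairs (log2 fold change -1.31 ± 0.78; edgeR unadjusted p = 0.157). Ebi3, a subunit of IL-27, was the most abundant of the list and stood at 120.9 and 95.5 CPM against 154.9 and 122.4 CPM. Il15, next in abundance, had a log2 fold change of -0.04. Il6, the classical inducer of Socs3, stood at 10.3 and 8.69 CPM against 7.05 and 8.04 CPM.

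Of 23 receptor chains 22 were tested, 10 above and 12 below 0, with a median of -0.04. Csf3r, the receptor of Csf3, gave 681.1 and 297.0 CPM in the control libraries 1 and 3, against 463.3 and 401.8 CPM in the knockout ones, so control 1 was high as for Socs6. Csf2rb2, a beta chain of the GM-CSF receptor family, had a log2 fold change of -0.14. Csf2ra, the alpha chain of the GM-CSF receptor, had one of -0.28 with both knockouts below both controls. Il27ra was at 0.129 to 0.670 CPM, too near the floor to be read.

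Of the 10 JAK kinases and other STATs, 5 lay above and 5 below 0, and the median was 0.00. Stat2, a subunit of the interferon-activated complex ISGF3, gave 180.5 and 113.9 CPM in the control libraries 1 and 3, against 259.2 and 283.6 CPM in the knockout ones (log2 fold change 0.88 ± 0.27; SE, n = 2 a group; edgeR unadjusted p = 0.0243, adjusted p = 1.00). Both knockouts exceeded both controls for 2 of these 10 kinases and STATs, Stat2 among them, against 13.1% of all tested genes. An edgeR unadjusted p under 0.05 was reached by 2 of them, against 2.27%. The largest log2 fold change of the list, 0.95, belonged to another gene. Stat3, outside this list, did not separate. Stat6 and Jak1, the most abundant of the list, had log2 fold changes of -0.00 and 0.01, and Stat4 one of -0.44 ± 0.44.

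Among 16 other negative regulators 12 lay above and 4 below 0, with a median of 0.03. Usp18, an interferon-induced protease that blocks the type I interferon receptor, had the smallest p of the list, with 29.2 and 24.6 CPM in the control libraries, against 47.7 and 59.4 CPM in the knockouts (log2 fold change 0.99 ± 0.20; SE, n = 2 a group; edgeR unadjusted p = 0.00575, adjusted p = 1.00; DESeq2 adjusted p = 0.0999). Socs7, named outside the rule after its values were seen, stood at 32.4 and 25.4 CPM against 30.6 and 29.9 CPM. The phosphatase genes Ptpn6 and Ptpn1 had log2 fold changes of 0.16 and 0.01, and Pias2 one of -0.16. The 7 partners with which the SOCS box forms a ubiquitin ligase had a median of 0.08 and a range of -0.13 to 0.21, with Cul5, the scaffold, at 0.21, Rnf7, its RING subunit, at 0.14 and Elob at -0.13. The SOCS proteins' ligase partners therefore lay within a narrow band round 0.

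Of 26 other genes described as STAT3 targets 25 were tested, 12 above and 13 below 0, with a median of -0.01. Vegfa, the angiogenic growth factor, gave 171.6 and 156.7 CPM in the control libraries 1 and 3, against 122.2 and 102.9 CPM in the knockout ones (log2 fold change -0.54 ± 0.17; SE, n = 2 a group; edgeR unadjusted p = 0.0257, adjusted p = 1.00). Fgl2, a secreted fibrinogen-like protein, had a log2 fold change of 1.28 ± 0.59. Saa3, an acute phase gene and the most abundant of the list, stood at 19057 and 7849 CPM against 20963 and 19266 CPM, with control 3 the one low library. Mcl1, a survival factor, had a log2 fold change of 0.18. The genes of this list thus gave no common direction.

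Among 9 Pim kinases and IkB and NF-kB relatives 4 lay above and 5 below 0, with a median of -0.05. Pim2, a close relative of Pim1, gave 24.7 and 19.3 CPM in the control libraries 1 and 3, against 55.4 and 33.96 CPM in the knockout ones (log2 fold change 1.02 ± 0.31; SE, n = 2 a group; edgeR unadjusted p = 0.0244, adjusted p = 1.00). The 2 Pim genes thus had point estimates of opposite sign, and the difference between them was not tested. Nfkbie, an inhibitor of NF-kB, stood at 38.4 and 24.6 CPM against 16.97 and 20.4 CPM, while Nfkbia and Nfkbiz had log2 fold changes of 0.06 and 0.18. Of 13 m6A writer and reader genes 9 lay above and 4 below 0, with a median of 0.10. Wtap, the adaptor of the writer complex, stood at 147.2 and 135.1 CPM against 96.8 and 111.0 CPM (log2 fold change -0.44 ± 0.16; edgeR unadjusted p = 0.0419, adjusted p = 1.00), and Cbll1, another writer subunit, had a log2 fold change of 0.51. The readers Ythdf3 and Ythdf1 had values of 0.04 and 0.26.

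**Figure D4:**
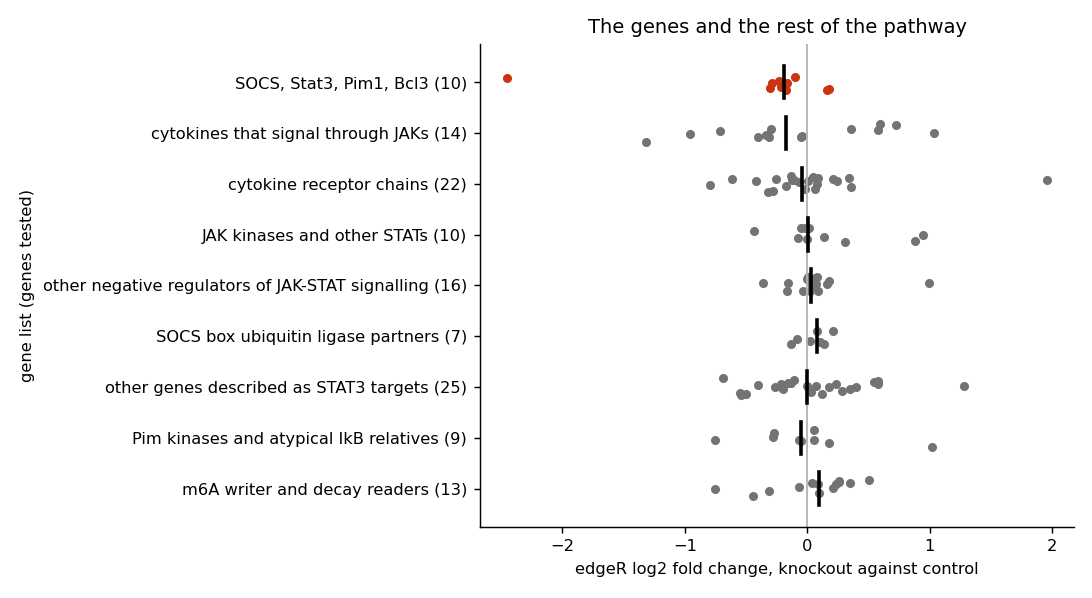
Log2 fold change (edgeR, knockout against control) of every tested gene in each list, with the SOCS family, Stat3, Pim1 and Bcl3 in red, the other lists in grey and a black bar at each median; the number tested is in brackets and vertical scatter within a list has no meaning. The red median is -0.19, the grey medians lie between -0.17 and 0.10, and Socs1 is the red point at -2.46.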

How the data were processed

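Poly(A) RNA was sequenced as read pairs from dUTP-marked libraries, per the labels' protocols. The submitters' processing notes name cutadapt 1.9, HISAT2 2.0.4, StringTie 1.3.4d, edgeR and DESeq2. The genome build, strand setting and treatment of reads with several matches: not given in the sources used here. By position, 94.2% of 55141 shared gene identifiers, and 9 of the 10 genes described, had the coordinates of GENCODE M21 (GRCm38).

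The authors deposited estimated counts and FPKM values per gene. The estimated counts were whole numbers, not normalized. Between 38.7% and 39.5% of counts from 1 to 24 were multiples of 4, so a count may not be 1 fragment, and floors (12 counts, 0.152 to 0.221 CPM) cover counting error only. The 4 columns of 2 other libraries that match no sample were not used.

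Genotype alone was tested in edgeR 4.0.16 under R 4.3.3, by quasi-likelihood after filterByExpr and TMM scaling (two-sided, Benjamini-Hochberg over 17260 genes, threshold 0.05). Number was tested in a fit with both terms. Each SE is the fold change over the root of F. Within-number differences used log2 CPM with a prior count of 2 and have no test. Alternatives used DESeq2 1.42.0, limma 3.58.1 on log2(FPKM + 1) and log2(FPKM + 0.1) for genes with a mean FPKM of at least 0.1, other scalings and filters, counts divided by 4, a replicate block, and each library left out. The scripts were tested on simulated data. The series text calls the libraries biologic replicates but does not say whether each came from its own mouse. In each genotype Ddx3y and Xist had opposite patterns in numbers 1 and 3, so those libraries did not come from the same mouse. In fits without number the p-values measure only the spread between these libraries, which also holds whatever differs with the number. In fits with number as a term that difference is taken out of the spread.

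The genes and lists were chosen with earlier results of these data known. Named beside the 10 genes were, per list, the genes passing the test or, with none passing, the 2 of highest mean FPKM and the smallest p per direction. The GGACT search and the fits with number as the only term were added after the data were seen. Some items are not reported here.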

Additional observations from a re-analysis of the deposited data

Results flagged for a closer look

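For 4 of the 10 genes the knockout difference had opposite signs in the 2 library numbers, and the difference between the numbers was not tested, since 4 libraries leave no residual for it. On the log2 CPM scale Socs3 had -0.283 in number 1 and 0.0408 in number 3. Socs4 had -0.00314 and 0.311, with the first value at about 0. Socs6 had -0.612 and 0.0783, where control 1 was the one high library. Bcl3 had 0.0305 and -0.245.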

How the results depend on the processing

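Between genotypes, 0 of the 10 genes were called under each of the 13 alternatives. Over all genes edgeR called 0, DESeq2 called 73, and DESeq2 with the replicate block called 171. The edgeR fit with the replicate block called 0. Libraries of the same number deviated together (r = 0.42 over genes), but the labels do not say what the number marks. The genotype values above are therefore without the block, except where the text says that number was in the fit. The 10 sign changes all came from leaving out 1 library, which mixes number with genotype. Without control 1, Socs3 had 0.47, Socs6 0.012 and Cish 1.437. Without control 3, Socs2 had -0.399, and without knockout 1 it had -0.806. Without knockout 3, Socs3 had 0.156, Cish 0.512, Stat3 0.04, Pim1 0.053 and Bcl3 0.067. The other ends of these ranges were 1.173 for Socs2, -0.608 for Socs3, -0.53 for Socs6, -2.337 for Cish, -0.511 for Stat3, -0.559 for Pim1 and -0.266 for Bcl3. Socs1 ran from -4.19 without knockout 3 to -0.77 by limma on log2(FPKM + 1).

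Between library numbers, edgeR called 122 genes and 1 of the 10. Without the filter on low counts it called 0 and 0, DESeq2 called 1208 and 2, and limma on log2(FPKM + 1) called 79 and 0. With number as the only term it called 177 and 1, and 0 of the 10 with any 1 library left out as well. Those fits called 4 genes without control 1, 57 without control 3, 1 without knockout 1 and 87 without knockout 3. Socs1 changed sign by DESeq2 (0.081) and without control 1 (2.62). Socs4 turned to -0.019 without knockout 3, Socs5 to -0.004 without control 3 and Socs6 to 0.123 without control 1. The cause of these changes was not tested. Of the list medians, 29 of 104 values moved by more than the spread between the 2 numbers.

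Of the RefSeq promoter windows of these genes 2 held TTCNNNGAA, and 0 held it with a spacer 1 base shorter or longer. Depth limits Socs1 and Socs2 most, with counts of 13 to 340 and 74 to 253.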
